A study of Mus musculus with 12 samples.

Results

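The livers of male mice lacking OXR1A were compared with those of wild-type males, gene by gene across the transcriptome and library by library. The comparison takes 6 of the 12 liver RNA libraries of the series, chosen by the genotype and sex in their labels: 3 wild-type males and 3 males of genotype OXR1A-/-, called knockout males below, all aged 12 months. The other 6 libraries, 3 wild-type and 3 OXR1A-/- females of the same age, lent their spread to the statistical fit and served as a reference for genes that differ between the sexes. The labels used here give no strain, diet or allele and leave it unsaid whether each library is a different mouse, so a p-value here reflects variation among libraries, which may be technical in part. The series title places the question in fatty liver of the males and in the transcription of hormone response and lipid metabolism genes.

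Oxr1 belongs to the TLDc domain genes, which protect cells against oxidative damage, and OXR1A is one of the protein isoforms made from it. The liver is made mostly of hepatocytes, which secrete plasma proteins and run the metabolism of lipids, amino acids and foreign compounds, with macrophages (Kupffer cells), sinusoidal endothelium and stellate cells between them. In mice many hepatocyte genes are set to a male or a female level by the pattern of growth hormone release, pulses in males and a steadier level in females. Major urinary proteins (Mup) and Hsd3b5 are typical of males, and Cyp2b9, Cyp3a41a and Sult2a1 of females.

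Levels are in FPKM, a unit that corrects fragment numbers for the length of the transcript and the yield of the library, and the FPKM of all genes summed to between 526203 (knockout male 1) and 667434 (wild-type male 2) among the males. Alb stood at 31720 FPKM or more in each of the 6 male libraries and Apoa1, Ttr and Ahsg, other hepatocyte products, at 2790 or more. Eif2s3y on the Y chromosome lay at 23.1 to 35.7 FPKM in the 6 males. Among the females it was at 1.89 FPKM in wild-type female 1, 0.85 in knockout female 1 and 0 to 0.1 in the others. Oxr1 (Entrez gene 170719) stood at 23.3, 12.1 and 18.4 FPKM in wild-type males 1, 2 and 3 and at 25, 22.9 and 22.1 in the knockout males, a difference that did not pass the test (log2 change 0.41, SE 0.18, limma adjusted p = 0.204). The value covers every isoform of the gene, so it checks nothing about the loss of OXR1A. Major urinary protein transcripts made up 9.91%, 14.3% and 8.51% of the FPKM in the wild-type males and 3.54%, 1.32% and 7.75% in the knockout males (exact two-sided permutation test, p = 0.1, the smallest that 3 against 3 can give).

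Among the male libraries 3 stood apart from their group. Knockout male 2 carried 292 genes that lay at least 1 above all 5 other male libraries on the log2(FPKM + 1) scale, 2.54% of the genes tested, against 3 to 19 genes in each of the other libraries. Wild-type male 2 carried 61 genes that lay at least 1 below the other 5, and its long transcripts were scarce: the slope of a gene's log2 deviation on log2 transcript length was -0.21 there and -0.08 to 0.12 in the other 5 males. Knockout male 3 held transcripts typical of females at a low level, and Xist, the RNA that silences 1 X chromosome in females, at 0.82 FPKM against 0.04 to 0.08 in the other males. Some results below are given with and without knockout male 2 or knockout male 3. For wild-type male 2 this was done only for counts of calls and for the calls of single genes.

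**Figure D1:**
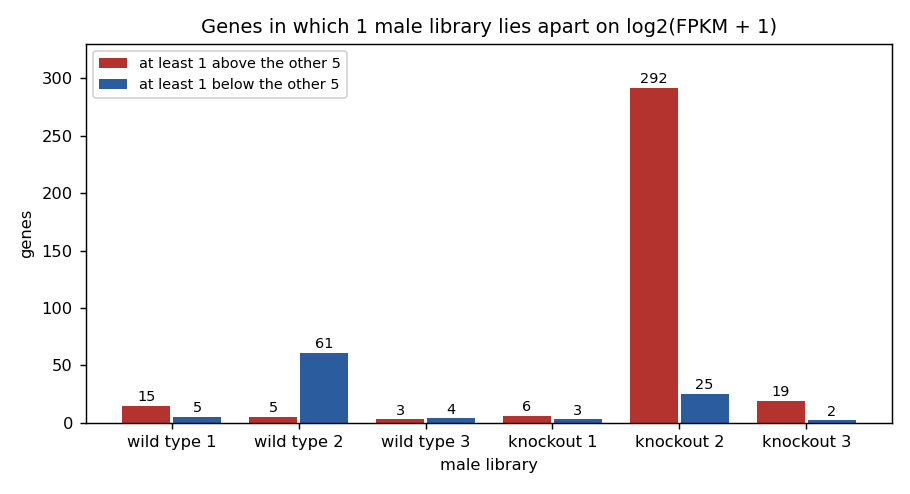
Number of genes (y axis, of 11514 tested) whose log2(FPKM + 1) in 1 male library (x axis) lay at least 1 above (red) or at least 1 below (blue) all 5 other male libraries, with the count over each bar. Knockout 2 stands out with 292 genes above, and wild type 2 with 61 below.

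Knockout and wild-type males differed in 294 of 11514 genes (2.55%) at an adjusted p under 0.05, 245 higher (2.13%) and 49 lower (0.426%) in the knockout (limma on log2(FPKM + 1), Benjamini-Hochberg adjustment). The change exceeded 1 on the log2 scale in 73 of the genes that rose (0.634% of those tested) and in 28 of those that fell (0.243%). In all 294 called genes the 3 knockout values lay outside the 3 wild-type values, as they did in 23.7% of the tested genes, 2446 above (21.2%) and 287 below (2.49%). The whole distribution was shifted: the median log2 change over all tested genes was 0.19, and 78.8% of the genes had a positive change. Scaling the libraries by median ratios took that median to 0.01 and gave 71 genes up and 81 down, quantile normalization gave 61 up and 79 down, and removal of the trend on transcript length 126 up and 174 down. Each of the 3 took out the upward shift (medians 0.01, -0.01 and -0.01), which by itself enlarges falls and shrinks rises. All 3 were passed by 43 of the 49 falls and 50 of the 245 rises, so these counts do not compare how sturdy the 2 directions are. A log2 change quoted below is on the deposited scale and contains the shift of 0.19.

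The count rested on single libraries. Without wild-type male 1, 2 or 3 it was 145, 122 or 58, and without knockout male 1, 2 or 3 it was 112, 81 or 570. Leaving out both wild-type male 2 and knockout male 3, a choice made after seeing the data, gave 357. Of the called genes 40, namely 29 up and 11 down, passed in each of the 6 fits that left out 1 male library, and 31 passed in none of them. No called gene changed sign under any planned setting or omission of 1 library. In the fit without both wild-type male 2 and knockout male 3, signs were followed for 172 of the called genes, and 0 changed. When the spread was estimated from the 6 male libraries only, 3 genes passed (Cyp2b9, Serpina7 and Selenbp2), with 1571 at an unadjusted p under 0.05 against 2752 in the fit of 12 libraries.

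**Figure D2:**
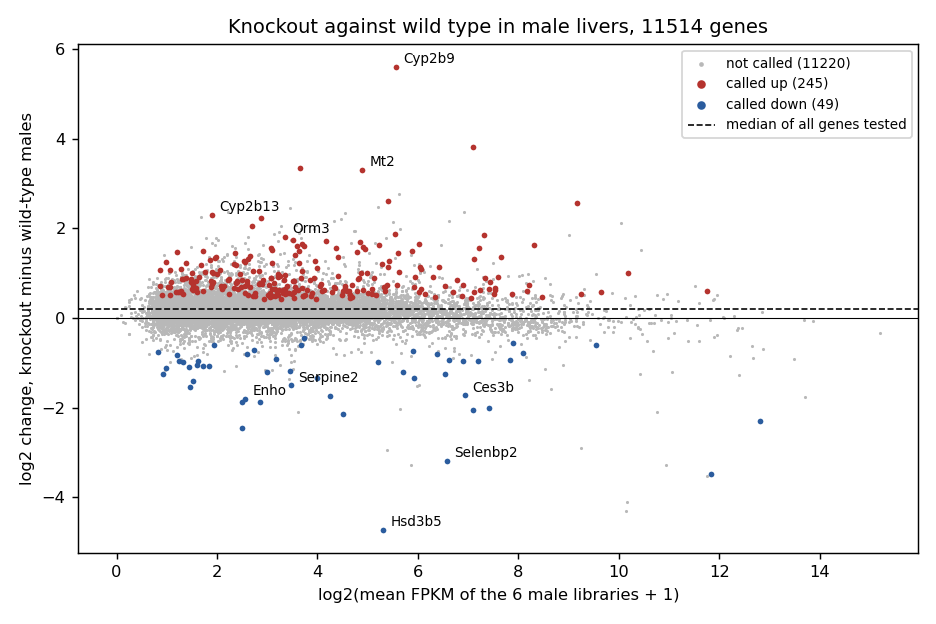
Log2 change between knockout and wild-type males (y axis) against the level of each gene (x axis, log2 of the mean FPKM of the 6 male libraries + 1), with 1 point per gene, called genes in colour and the dashed line at the median of all genes. The cloud sits above 0 with its median at 0.19, and the 245 rises and 49 falls include both scarce and abundant genes.

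The genes that fell were of several kinds. Enho encodes adropin, a peptide hormone linked to energy balance, and stood at 6.46, 8.86 and 8.50 FPKM in the wild-type males and at 1.02, 0.66 and 3.99 in the knockout males. All 3 knockout values were below the wild-type values, with knockout male 3 the closest to them (log2 change -1.80, SE 0.34, adjusted p = 0.0251, 4.20-fold lower). Ces3b, a carboxylesterase, fell 3.25-fold, from 234, 179 and 143 FPKM to 47.4, 40.6 and 83.0 (log2 change -1.72, adjusted p = 0.0141), again with knockout male 3 highest of the knockouts. Serpine2, the thrombin inhibitor protease nexin-1, fell 3.14-fold, from 19.8, 13.4 and 12.9 to 5.83, 2.74 and 6.09 FPKM (adjusted p = 0.0112). Sap25, a subunit of a histone deacetylase complex, was listed at 1.53, 2.16 and 1.27 FPKM in wild type and at 0, 0 and 0.38 in the knockout, levels close to the filter of 1 FPKM. Fst, or follistatin, an activin-binding protein, fell 3.48-fold from levels of 1.71 to 2.51 FPKM.

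Some of the falls were in single enzymes of metabolism. Ahcy, which hydrolyses S-adenosylhomocysteine, the product of every methyl transfer from S-adenosylmethionine, stood at 914, 892 and 910 FPKM in the wild-type males and 601, 578 and 596 in the knockout males (log2 change -0.61, SE 0.10, adjusted p = 0.0131, lost without wild-type male 3). The groups lay far apart compared with the spread within either of them. Afmid and Acmsd act in the breakdown of tryptophan, the first releasing kynurenine and the second steering the pathway away from the synthesis of NAD. Afmid fell 1.75-fold, from 97.4 to 115 FPKM in wild type to 54.8 to 66.8, and Acmsd 2.72-fold, from 6.36 to 12.9 to 2.73 to 4.59. Tk1, cytosolic thymidine kinase and the neighbour of Afmid on chromosome 11, fell 2.71-fold, from 19.5, 22.4 and 23 to 6.30, 9.09 and 8.53 FPKM (adjusted p = 0.00947). Asl, the urea cycle enzyme argininosuccinate lyase, fell 1.71-fold, from 278, 389 and 358 to 159, 232 and 209 FPKM, and Ccbl1, a kynurenine aminotransferase, 1.67-fold; both were chosen after their values were seen. Of the 6 fits that left out a male library, Afmid passed in 4, Acmsd in 3, Asl in 2 and Ccbl1 in 1. In the list of amino acid breakdown 1 of 39 tested members was called down and none up, beside 2.55% of all genes called in either direction, with a median log2 change of -0.15 against 0.19 over all genes.

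Transporters and regulators were also among the falls. Slc13a2, a carrier of sodium and dicarboxylates, was at 1.49, 1.93 and 1.66 FPKM in wild type and at 0.15, 0.39 and 0.19 in the knockout (log2 change -1.12, SE 0.13, adjusted p = 0.00196). Eif4ebp3, a member of the proteins that bind eIF4E and hold back translation, fell 3.72-fold, from 32.1, 33.7 and 19.9 to 6.53, 7.43 and 9.12 FPKM (adjusted p = 0.00313). Cdh1, or E-cadherin, the adhesion molecule of epithelial junctions, fell 5.66-fold with an adjusted p of 0.00244. Eif4ebp3, Slc13a2, Cdh1, Serpine2 and Tk1 passed in each of the 6 fits that left out 1 male library, whereas Enho passed in 2 and was at an adjusted p of 0.0814 without knockout male 2, and Ces3b passed in all but the fit without that library. Chosen after their values were seen, Cyp2c70, which makes muricholic acids, fell 1.91-fold and Slc43a1, an amino acid transporter, 3.43-fold. Of the 6 fits that left out a male library, both failed only the one without wild-type male 3. Apom, an apolipoprotein that carries sphingosine-1-phosphate, fell 1.92-fold, but it passed in 1 of the 6 fits and lost its call under median-ratio scaling.

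Among the rises, several neighbouring genes were called together. Of the 294 called genes 28 lay next to a gene called the same way, in 13 runs along the chromosomes. Among the runs were Cyp2b13 and Cyp2b9 on chromosome 7 (26061388 to 26210661, GRCm38), Mt2 and Mt1 on chromosome 8 with Nup93 beside them, Orm3 and Orm2 on chromosome 4 (63356069 to 63365877), and Raet1e and Raet1d on chromosome 10 (22158542 to 22374143). The promoters of the Cyp2b, Mt and Orm pairs are shown because their members are related genes that sit side by side and were both called; near-identical genes can exchange reads, so the split between copies within the Cyp2b, Orm and Raet1 families is uncertain. Each sequence is from RefSeq (GRCm38.p6, the mm10 assembly), 300 bases from 250 before to 50 after the transcription start, on the gene's strand, with matches to the named motifs in capitals. Capitals in Mt2 and Mt1 mark the metal response element in its A form (TGCACNC) or G form (TGCGCNC), the core bound by the zinc sensor MTF1, searched on both strands. In Orm3 and Orm2 they mark a TATA box (TATAAA) and a palindromic C/EBP site (TTGCGCAA), and in Cyp2b13 and Cyp2b9 the same TATA box and the STAT site (TTCNNNGAA) were searched and not matched.
Mt2 (chr8:94172368-94172667, + strand): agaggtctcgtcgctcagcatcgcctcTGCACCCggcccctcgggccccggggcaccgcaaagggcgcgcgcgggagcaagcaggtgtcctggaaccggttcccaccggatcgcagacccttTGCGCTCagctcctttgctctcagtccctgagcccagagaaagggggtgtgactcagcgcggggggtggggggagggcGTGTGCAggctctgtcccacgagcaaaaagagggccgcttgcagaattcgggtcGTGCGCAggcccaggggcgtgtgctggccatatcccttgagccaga
Mt1 (chr8:94178839-94179138, + strand): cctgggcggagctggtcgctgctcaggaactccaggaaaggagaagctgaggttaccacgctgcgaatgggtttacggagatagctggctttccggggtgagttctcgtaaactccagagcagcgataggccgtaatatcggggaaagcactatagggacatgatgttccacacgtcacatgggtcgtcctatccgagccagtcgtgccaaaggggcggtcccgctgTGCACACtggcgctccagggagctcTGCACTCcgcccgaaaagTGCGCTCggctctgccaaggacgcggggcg
Orm3 (chr4:63355908-63356207, + strand): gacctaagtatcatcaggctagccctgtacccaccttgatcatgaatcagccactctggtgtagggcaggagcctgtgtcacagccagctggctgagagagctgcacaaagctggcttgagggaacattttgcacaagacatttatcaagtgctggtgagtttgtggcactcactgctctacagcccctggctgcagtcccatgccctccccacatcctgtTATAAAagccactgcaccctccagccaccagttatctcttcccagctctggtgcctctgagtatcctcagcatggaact
Orm2 (chr4:63362199-63362498, + strand): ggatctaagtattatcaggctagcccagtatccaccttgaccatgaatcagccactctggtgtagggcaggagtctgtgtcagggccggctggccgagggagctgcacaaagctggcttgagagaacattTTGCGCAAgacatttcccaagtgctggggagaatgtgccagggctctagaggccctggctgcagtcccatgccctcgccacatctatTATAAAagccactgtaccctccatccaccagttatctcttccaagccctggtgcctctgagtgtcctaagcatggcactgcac
Cyp2b13 (chr7:26061245-26061544, + strand): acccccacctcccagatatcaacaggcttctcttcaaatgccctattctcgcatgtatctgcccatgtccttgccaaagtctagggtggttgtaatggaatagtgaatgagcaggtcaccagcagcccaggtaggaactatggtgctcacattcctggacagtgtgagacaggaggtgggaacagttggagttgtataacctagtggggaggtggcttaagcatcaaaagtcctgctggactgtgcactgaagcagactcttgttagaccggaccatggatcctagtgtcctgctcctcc
Cyp2b9 (chr7:26173159-26173458, + strand): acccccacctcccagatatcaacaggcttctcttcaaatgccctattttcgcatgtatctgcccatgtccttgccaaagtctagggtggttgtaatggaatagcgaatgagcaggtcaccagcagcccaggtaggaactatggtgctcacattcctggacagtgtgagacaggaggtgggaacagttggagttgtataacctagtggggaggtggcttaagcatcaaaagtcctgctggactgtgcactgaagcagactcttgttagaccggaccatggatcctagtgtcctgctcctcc

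The Mt2 promoter (chr8:94172368-94172667) held 4 matches to the metal response cores and the Mt1 promoter (chr8:94178839-94179138) 3. The listed Mt1 gene begins at 94178883, so most of its window lies inside the gene's listed span. Mt2 begins at 94172618, the start used for its window, so the counts come from windows placed differently. Mt2, a zinc-binding metallothionein, stood at 2.27, 6.82 and 4.54 FPKM in the wild-type males and at 76.1, 43.6 and 39.0 in the knockout males (log2 change 3.31, SE 0.67, adjusted p = 0.0296). Mt1 went from 5.96, 14.8 and 10.8 to 89.0, 34.4 and 91.7 FPKM (log2 change 2.61, SE 0.57, adjusted p = 0.0423). The groups did not overlap in either gene, but each passed in 1 of the 6 fits that left out a male library and in neither case under median-ratio scaling or quantile normalization. In wild-type females the means were 132 FPKM for Mt2 and 243 for Mt1, above every male library. A single knockout female (library 1) stood at 626 FPKM for Mt2 and 803 for Mt1, against 87.5 to 95.3 and 178 to 199 in the other knockout females.

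The promoters of Cyp2b13 and Cyp2b9 were identical in 298 of 300 aligned bases (99.3%), and those of Orm3 and Orm2 in 86.6%, against 49.4% for Mt2 and Mt1. These windows were not all placed alike: the listed gene begins at the start used in Mt2 and Orm2, and upstream of it in the others. Cyp2b9, an enzyme of drug and steroid oxidation, was at 1.0, 0.42 and 0.76 FPKM in wild-type males and at 108, 131 and 38.1 in the knockout males. Cyp2b13 was listed at 0, 0.08 and 0.09 FPKM in wild type and at 0.88, 8.18 and 7.07 in the knockout (log2 change 2.30, SE 0.48, adjusted p = 0.0334), and it passed in 1 of the 6 fits, the one without knockout male 1. The order of the knockout libraries differed between these neighbours: knockout male 1 was the lowest for Cyp2b13 and the middle one for Cyp2b9. Orm3, an orosomucoid of the acute phase, went from 4.59, 3.25 and 2.74 FPKM to 15.4, 17.2 and 11.8 (log2 change 1.81, SE 0.19, adjusted p = 0.00172), and passed in all 6 fits as did Orm2. Raet1d and Raet1e, ligands of the killer cell receptor NKG2D, rose 3.52-fold and 3.72-fold, Raet1d from 9.86, 15.6 and 11.3 to 31.6, 62.3 and 35.5 FPKM.

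**Figure D3:**
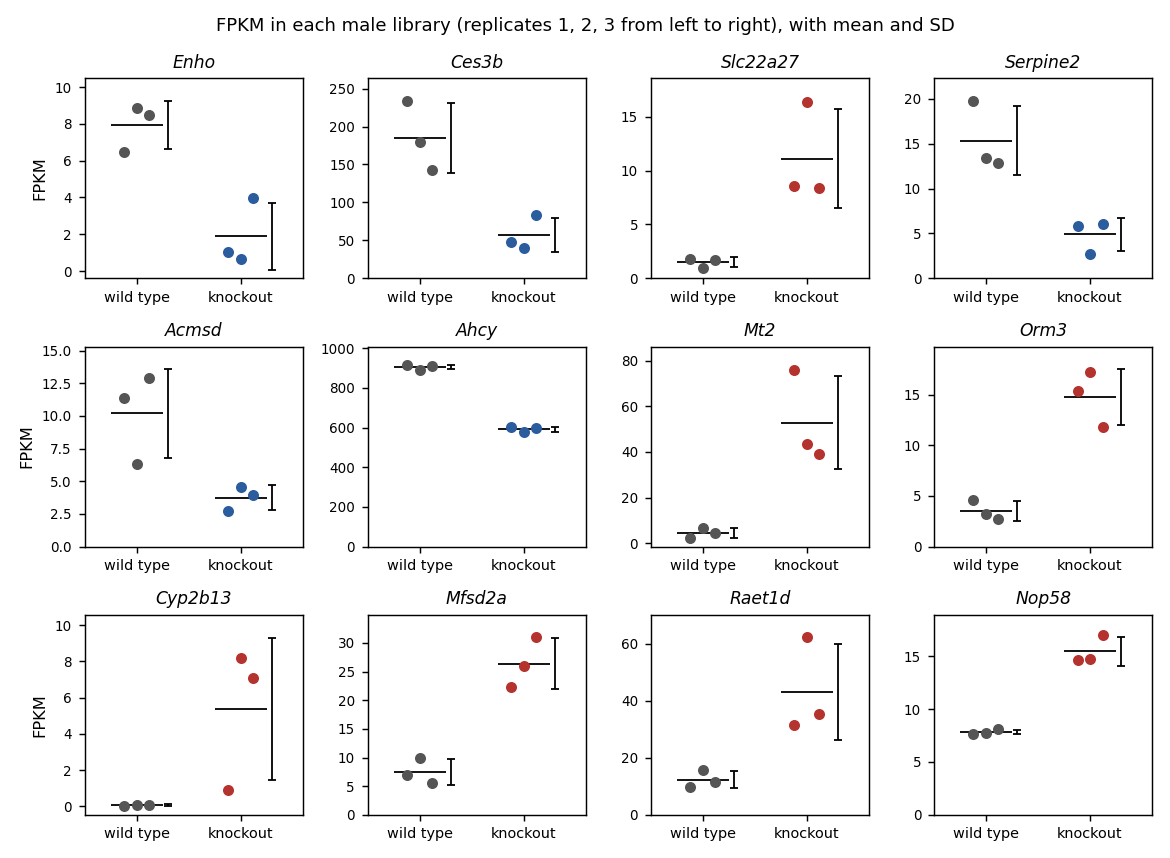
FPKM (y axis) of 12 genes in the 3 wild-type (grey) and 3 knockout (blue for a fall, red for a rise) male libraries, with the mean as a line and ± SD as the bar beside it. In each panel the groups do not overlap, and the spread among knockouts differs from gene to gene: it is narrow for Ahcy (578 to 601 FPKM) and wide for Cyp2b13 (0.88 to 8.18).

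Rises that passed in all 6 fits leaving out a male library and under all 3 scalings, a set added after the values were seen, came from many kinds of gene. Ctps, CTP synthase, went from 1.06, 1.0 and 0.88 FPKM to 2.68, 2.47 and 2.70 (log2 change 0.87, SE 0.11, adjusted p = 0.00313). Aqp4, a water channel, went from 0.36, 0.29 and 0.40 to 2.05, 1.81 and 1.63 FPKM (adjusted p = 0.00313), and Chi3l1, a chitinase-like glycoprotein, from 0.12 to 0.23 to 1.12 to 1.71 FPKM (adjusted p = 0.00826). All 3 were scarce in every male library and did not overlap between the groups. Themis, a gene of T cell selection, rose from 0.22, 0.06 and 0.18 FPKM to 2.68, 1.75 and 1.02. Its log2 change was 1.25, and the 11.9-fold ratio of the means rests on wild-type values near 0. The lymphocyte list held no call: 0 of 11 tested members, with a median log2 change of 0.07 (-0.07 with median-ratio scaling). Serpina7, the thyroxine-binding globulin, had wild-type values of 30.7, 30.1 and 29.0 FPKM and knockout values of 75.4, 94.1 and 89.6, a 2.88-fold rise (adjusted p = 0.00947). Outside that set, Mfsd2a, a carrier of lysophospholipids, went from 6.99, 9.89 and 5.58 to 22.2, 25.9 and 31 FPKM, a rise of 3.52-fold on the deposited scale that was not called with median-ratio scaling (adjusted p = 0.0334 and 0.0934). Within it, Slc22a27 and Slc22a29, carriers of organic anions, rose 7.44-fold and 4.75-fold, and Slc16a6, a monocarboxylate carrier, 2.88-fold. Ptgs1 (cyclooxygenase 1), Gpc1 (glypican 1), Vps37c of the ESCRT-I complex and the ubiquitin-conjugating enzyme Ube2e2 rose 2.02-fold, 2.81-fold, 2.01-fold and 1.86-fold.

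Nucleolar, stress and sphingolipid genes were also among the rises. Nop58, a core protein of the box C/D ribonucleoproteins that modify ribosomal RNA, went from 7.66, 7.77 and 8.09 FPKM to 14.6, 14.8 and 17.0 (log2 change 0.90, SE 0.13, adjusted p = 0.00947; 0.150 with the length trend removed). Other nucleolar genes, chosen after their values were seen, were Gnl3 (1.71-fold), Ccdc86 (1.95-fold), Nol8 (1.80-fold), Ftsj3 (1.38-fold) and Rsl1d1 (1.38-fold), each called up on the deposited scale and none under median-ratio scaling or quantile normalization. Of 82 cytosolic ribosomal protein genes none was called, 5 had a positive change, and the median log2 change was -0.16 against 0.19 over all genes. The groups overlapped: relative to the wild-type mean the list stood at -0.27, 0.42 and -0.15 in the wild-type males, highest in wild-type male 2, and at -0.39, -0.05 and -0.02 in the knockout males. Wild-type males 1 and 3 lay below knockout males 2 and 3 and above knockout male 1. The lower median of this list thus rests on wild-type male 2, and it was not computed without that library. Ficd, which attaches AMP to the endoplasmic reticulum (ER) chaperone BiP, rose 2.17-fold (2.48, 2.51 and 2.10 to 5.69, 5.38 and 4.30 FPKM, adjusted p = 0.00947; 0.0552 with quantile normalization). Hspb8 and Bag3, partners in the clearance of misfolded proteins, rose 1.66-fold and 1.97-fold. Aen and Ccng1, targets of p53, rose 1.82-fold and 1.6-fold, 2 of the 16 tested genes of that list (2.13% of all genes were called up), and Trp53 itself, chosen after its values were seen, rose 1.53-fold, from 7.47, 6.98 and 8.09 to 10.4, 13.1 and 11 FPKM. Among these, Bag3, Ccng1 and Trp53 lost their calls under median-ratio scaling and quantile normalization, Hspb8 under the first and Aen under the second, and Trp53 passed in none of the 6 fits. In the sphingolipid list 2 of 21 tested genes rose, against the same 2.13%, both of them ceramidases: Acer2 3.05-fold (2.0, 1.77 and 2.19 to 5.62, 8.09 and 4.48 FPKM) and Asah1 1.71-fold. Acer2 kept its call in each of the 6 fits and the 3 scalings, and Asah1 in 1 of the 6 fits.

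In 2 lists of the secretory pathway the calls were few, although other genes of the pathway were called outside them. All 30 tested genes of ER translocation and glycosylation and all 28 of the ER-to-Golgi coats had a positive log2 change, as did 78.8% of all genes, with medians of 0.28 and 0.38 against 0.19 over all genes, and 1 gene of each list was called up, Stt3b and Sar1a, beside 2.13% of all genes. With median-ratio scaling the medians were 0.06 and 0.15, and neither gene was called. Outside the lists the ER or Golgi genes Alg2, Arfgap3, Dpagt1, Stx5a and Rab1, chosen after their values were seen, were among those called up. Alg2 and Arfgap3 kept their calls with median-ratio scaling, whereas Dpagt1, Stx5a and Rab1 lost them. Syvn1, the ubiquitin ligase that marks misfolded proteins of the ER for degradation, went from 25, 17.6 and 18.4 FPKM to 47.0, 42.2 and 34.8 (log2 change 0.99, adjusted p = 0.0185; chosen after its values were seen, and called in 2 of the 6 fits). Its promoter (chr19:6046326-6046625) is printed because it is one of 2 among the 187 promoters of called rises, the other being that of Acnat2, to hold the ER stress element (CCAAT and CCACG with 9 bases of any kind between them, searched on both strands), here in capitals; 16 of all 9162 promoters (0.175%) hold it.
Syvn1 (chr19:6046326-6046625, + strand): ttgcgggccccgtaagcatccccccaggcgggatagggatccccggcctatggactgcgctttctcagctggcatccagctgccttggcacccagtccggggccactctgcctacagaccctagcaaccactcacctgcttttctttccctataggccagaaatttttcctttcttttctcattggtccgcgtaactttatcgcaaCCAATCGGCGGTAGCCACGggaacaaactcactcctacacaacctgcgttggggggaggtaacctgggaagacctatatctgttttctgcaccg

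Of the marker lists for other cell types, those of macrophages, sinusoidal endothelium and stellate cells held called genes, all up. The lists of lymphocytes (11 tested genes), red cells (5), cholangiocytes (5) and neutrophils (4) held none, with median log2 changes of 0.07, -0.31, 0.13 and 0.52 against 0.19 over all genes. In bulk tissue more cells of a type and more RNA per cell cannot be told apart. Of 19 macrophage markers 7 were called up and none down on the deposited scale, against 2.13% of all genes up. Their median log2 change was 1.04 (0.82 with median-ratio scaling). The mean log2(FPKM + 1) of the list ran from 3.03 to 3.76 in the wild-type and from 4.04 to 5.17 in the knockout males. No marker was at 0 in any male library. Timd4, a receptor for dying cells on resident Kupffer cells, went from 1.94, 2.07 and 3.14 FPKM to 4.57, 12.3 and 8.0. Csf1r, the receptor that macrophages need for survival, went from 6.77, 10.1 and 9.17 to 16.6, 32.1 and 14.5 FPKM. Knockout male 2 was the highest of the 3 in 17 of the 19 markers, and without it the median was 0.75. Timd4 and Csf1r, chosen after their values were seen, passed in 2 and 1 of the 6 fits and lost their calls under median-ratio scaling and quantile normalization. Of 31 lysosomal genes 4 were called up (Ctsc, Hexa, Psap and Lgmn, median 0.25, against 2.13% of all genes), enzymes and an activator protein abundant in macrophages as well as in hepatocytes, and the part of the macrophage markers in these calls was not tested. With median-ratio scaling the list median was 0.03 and none of the 4 was called (adjusted p from 0.0866 for Ctsc to 0.193 for Psap).

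Endothelial and stellate markers gave smaller differences. Of 16 sinusoidal endothelial genes 6 were called up and none down, against 2.13% of all genes up. All 16 changes were positive, as were 78.8% of those of all genes, with a median of 0.54 (0.35 with median-ratio scaling). The list stood 0.43 to 0.71 above the wild-type mean in the knockout males and within 0.15 of it in the wild-type males. Gpr182, a receptor of these cells, had values of 9.94, 9.32 and 9.74 FPKM in wild type and 18.9, 20.8 and 16.5 in the knockout (adjusted p = 0.00722). Lyve1, the hyaluronan receptor, went from 1.87, 1.85 and 1.20 to 6.47, 9.75 and 3.53 FPKM (chosen after its values were seen). Gpr182 passed in each of the 6 fits and Lyve1 in 1. Of 14 stellate cell markers 2 were called up, Dcn and Colec11, against 2.13% of all genes. Each passed in 1 of the 6 fits, and neither with median-ratio scaling (adjusted p = 0.0973 and 0.180). The collagen list of 15 tested genes held no call. None of 15 hepatocyte markers passed in either direction, and their median log2 change was -0.22 on the deposited scale, -0.46 with median-ratio scaling, -0.37 with the length trend removed and 0.04 after quantile normalization. In 6 of the 15 all knockout values lay below the wild-type values, as in 2.49% of all genes.

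**Figure D4:**
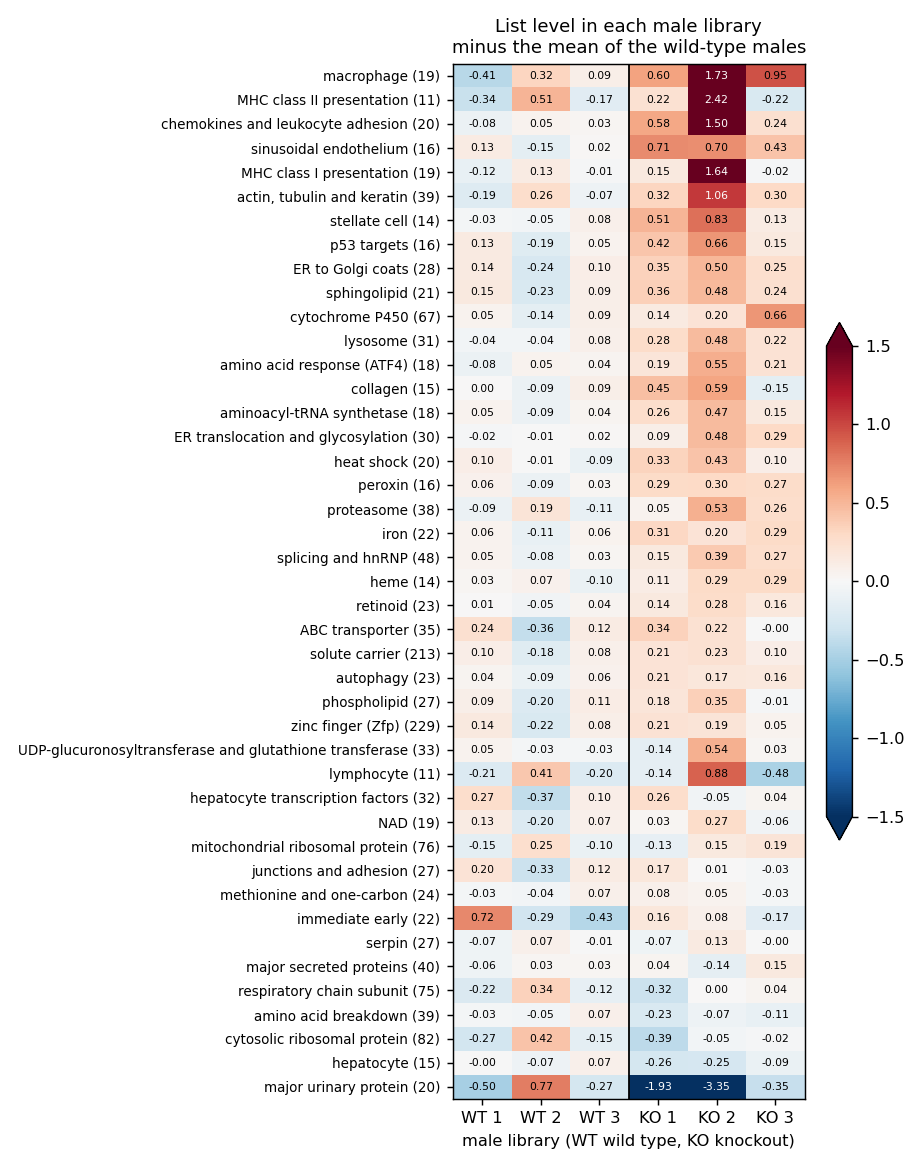
Mean log2(FPKM + 1) of each gene list in each male library minus the mean of the 3 wild-type males (colour and printed value), for lists with at least 10 tested genes, whose number stands in brackets. The lists of macrophages, sinusoidal endothelium and chemokines are higher in all 3 knockouts than in any wild-type male. Those of macrophages, MHC presentation and chemokines are highest in knockout 2, at 1.5 to 2.42.

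The genes that set knockout male 2 apart were chosen by a gap within the knockouts, which by itself makes a call between the groups less likely. Of the 292 genes 4 were called, beside 294 of all 11514 (2.55%), and the gap reached at least 3 in 20 of the 292. The largest was Tgtp1, a T cell-specific guanosine triphosphatase (GTPase) of the interferon response, at 709 FPKM in this library and at 0.93 to 3.71 in the other 5 males. Iigp1 stood at 2529 FPKM against 73.9 to 141, and Igtp at 516 against 10.3 to 17.6. Counted after the values were seen, 21 of the 22 tested interferon-inducible GTPases were among the 292, with a median over these genes of 57.5 FPKM in knockout male 2 and of 1.97 to 4.07 in the others. The chemokine Cxcl9 (245 FPKM against 2.44 to 7.94) and the ubiquitin-like protein Ubd (117 against 0.85 to 3.87) showed the same gap. None of the 5 genes named here passed the test in males (adjusted p from 0.213 for Iigp1 to 0.388 for Tgtp1).

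Genes of antigen presentation and of glutathione metabolism stood out in the same library. Of 35 MHC and peptide-loading genes 22 were among the 292, with a median of 79.5 FPKM against 9.89 to 21.4 in the other males. H2-Ab1, a class II chain, was at 268 FPKM in knockout male 2 and at 14 to 37.3 in the others. The median log2 change of the 11 class II presentation genes was 0.92 with this library and -0.14 without it, and that of the 19 class I genes 0.58 and 0.12. Of 11 glutathione transferases 5 were among the 292: Gstm3 was at 424 FPKM against 13.3 to 24.3, and Gsta1 at 113 against 5.03 to 18.9. The quinone reductase Nqo1 stood at 19.6 against 3.25 to 5.45 FPKM. Below the other 5 males this library had 25 genes, among them Mup7 (49.2 FPKM against 408 to 4453), Slco1a1, an organic anion carrier (0.85 against 13.7 to 89.5), and Egfr, the epidermal growth factor receptor (11.9 against 36.5 to 65.4). Over the 292 genes the median log2 change was 0.87, and 0.30 without knockout male 2.

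Knockout male 3 held female-typical transcripts that the other males had almost none of. Cyp3a41a, a female-type cytochrome P450, was at 129 FPKM in this library, at 0 and 3.39 in knockout males 1 and 2 and at 0.44 to 0.76 in the wild-type males, beside a wild-type female mean of 1795. Of the 19 genes that lay at least 1 above the other males in this library, 12 were over 50-fold higher in wild-type females than in wild-type males, and knockout male 3 had them at 1.97% to 10.5% of the female mean (median 5.57%). Over all 25 tested genes with that female bias and at least 5 FPKM in wild-type females, the median level as a percentage of the female mean was 4.73% in knockout male 3, 0.248% and 0.25% in knockout males 1 and 2 and 0.03% to 0.08% in the wild-type males. Xist in this library was at 2.25% of the female mean, and its part in these values was not tested. None of the 19 genes passed the test between the groups, beside 2.55% of all genes, and their choice by 1 library makes a call less likely. Some female-typical genes that did pass changed by as much or more without it: the log2 change of Cyp2b9 was 6.13 instead of 5.59, that of Slc22a27 2.39 instead of 2.23, and that of Cyp2a22 1.93 instead of 1.6. For Cyp2b13 it was 1.98 instead of 2.30, with an adjusted p of 0.0507.

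The remaining libraries carried fewer genes of their own. Wild-type male 1 had 15 genes above the other 5, among them immediate early genes, which are switched on soon after a stimulus: Nr4a1 (5.61 FPKM against 0.34 to 0.89), Myc (26.2 against 1.94 to 7.5), and Fos (4.21 against 0.22 to 1.45). Foxq1, a forkhead factor, was at 43.6 FPKM against 1.45 to 10.4. Wild-type male 1 was also the lowest of the 6 for the acute phase genes Saa1 (218 FPKM against 518 to 3469) and Saa2 (75.9 against 376 to 2755). Wild-type male 2 was the lowest for genes such as Sntb1 (1.66 FPKM against 9.07 to 24.1) and A1cf, a cofactor of RNA editing (7.89 against 23.4 to 70.9). Knockout male 1 was highest for Plin4, a lipid droplet protein, at 35.4 FPKM against 2.60 to 9.10, and for the chemokine Cxcl1 at 43.0 against 5.09 to 17.3. Among the genes called up, knockout male 2 was the highest of the 3 knockouts in 154 of 245 and knockout male 3 the lowest in 133; their median log2 difference to the wild-type mean was 0.73, 0.91 and 0.64 in knockout males 1, 2 and 3.

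The share of called genes was counted by the level and length of the transcripts. It went from 1.62% of genes under 2 FPKM on average over the 12 libraries to 5.22% of those at 50 to 500 FPKM, and was 5.04% above 500 FPKM. The median log2 change went from 0.22 in genes of 2 to 10 FPKM to -0.04 in those above 500. The 10 most abundant genes took 24.7% ± 1.94 of the FPKM in wild-type and 19.7% ± 2.06 in knockout males (SD, n = 3 each, exact permutation p = 0.1). Alb was at 39817, 42312 and 44456 FPKM in wild type and at 35762, 32372 and 31720 in the knockout, without overlap but short of the test (adjusted p = 0.139). Of the genes with transcripts of 4133 bases and more 0.910% were called, against 2.10% to 3.96% in 3 classes of shorter ones of like size. By chromosome, leaving out Y with none of 5 genes called, the share ran from 1.6% on chromosome 6 to 3.96% on chromosome 18, and the median change of each autosome lay between 0.15 and 0.22.

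Called genes were also counted by annotation, beside 2.55% called over all tested genes. Of 360 Gene Ontology processes with 20 to 200 tested genes, 123 held no called gene. The highest share was in the response to drugs, with 5 of 23 genes called, all of them up and all cytochromes P450 (Cyp2b13, Cyp2b9, Cyp2c38, Cyp2c39 and Cyp4b1). The response to glucocorticoids had 6 genes up, among them Bdh1 and Serpina7, and 3 down, Hsd3b5, Tk1 and Ugt2b38, of 42. Positive regulation of cytokine production had 8 of 57 up, which included the interleukin gene Il1a (2.38-fold), Tgfb1 (2.11-fold) and Myd88 (1.49-fold), an adaptor of Toll-like receptors. Those 3 genes, chosen after their values were seen, lost their calls under each of the 3 scalings. No term was tested for enrichment, and some share genes.

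The share of promoters holding a motif was counted for called genes and for all genes. Promoters were matched for 9162 of the 11514 tested genes, 187 of those called up and 35 of those called down, and both strands were searched. The STAT site was in 8.42% of all promoters, in 9.63% of the rises and in none of the 35 falls. The TATA box was in 9.57% of all, 12.3% of the rises and 14.3% of the falls. The G form of the metal response core was in 29.5% of all promoters, 25.1% of the rises and 5.71% of the falls, and the A form in 15.1%, 18.7% and 14.3%. Absence of a match says only that these letters are not in the window of 300 bases.

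In females the same knockout gave 2 called genes of 11514 (0.0174%), Orm2 up and 1810053B23Rik down, with 706 at an unadjusted p under 0.05 and a median log2 change of 0.00 over all genes. Of the 294 genes called in males 228 had a female change of the same sign, and the median female log2 change was 0.14 for the rises and -0.25 for the falls, against 0.76 and -1.09 in males. Orm2 had a log2 change of 1.85 in males, and its female change was 1.87. A direct test of whether the effect differed by sex passed in 3 genes (0.0261%): Cyp2b9 (difference 5.80, SE 0.50, adjusted p = 0.00122), Slc22a27 (2.43, SE 0.33, adjusted p = 0.0436) and Selenbp2 (-2.15, SE 0.29, adjusted p = 0.0436), with 1040 genes at an unadjusted p under 0.05. With 1 library left out, 1 to 5 genes passed, other than without knockout male 3, when 22 did. Serpine2 fell in males (log2 change -1.51) and was 1.18 ± 0.275 FPKM in wild-type and 2.16 ± 0.136 in knockout females (SD, 3 libraries each), a difference between the sexes that missed the threshold (adjusted p = 0.0641). Cyp2a22 stood at 3.98 to 4.99 FPKM in wild-type and 9.70 to 27.9 in knockout males, and at 113 to 133 in wild-type and 42.7 to 76.3 in knockout females (difference 2.72, adjusted p = 0.0641).

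**Figure D5:**
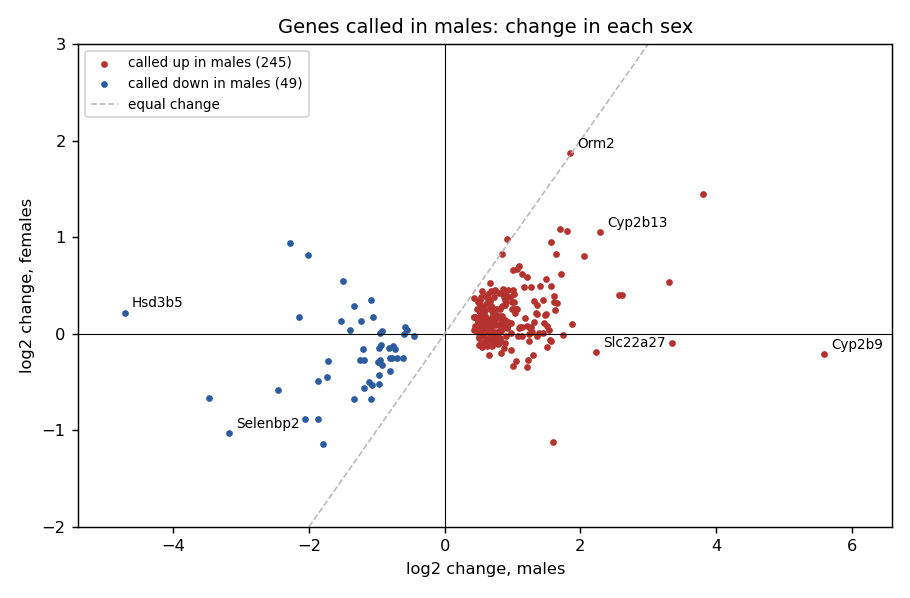
Log2 change between knockout and wild type in females (y axis) against that in males (x axis) for the 294 genes called in males, with rises in red, falls in blue and a dashed line where both changes would be equal. Orm2 lies on the line, and Cyp2b9 and Hsd3b5 lie far along the male axis with female changes near 0. Hsd3b5 was at 0 to 0.12 FPKM in wild-type females, too low for a fall to be seen there. Its sex difference missed the threshold (limma adjusted p = 0.0641). The median female change is 0.14 for rises and -0.25 for falls.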

How the data were processed

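Mouse liver RNA for 12 libraries was enriched for polyadenylated transcripts and sequenced, per the labels' protocols. TopHat2 and mm10 are named per the submitters' processing notes; for the quantifier, annotation and read depth, nothing is given in the sources used here, so no counting intervals can be given. The authors deposited 1 FPKM table of 18560 genes for all libraries. The 11514 genes that reached 1 FPKM in 3 or more of the 12 libraries were tested on log2(FPKM + 1), where 1 is the pseudocount, which understates the change of low genes. limma 3.58.1 in R 4.3.3 fitted the 4 group means over all 12 libraries with a mean-variance trend. The contrasts were knockout minus wild type in males, in females, and the male change minus the female one, with Benjamini-Hochberg adjustment over all tested genes and a threshold of 0.05. Fold changes are ratios of group mean FPKM.

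On simulated data for the male comparison (11514 genes), 82% of 100 genes changed by 1 on the log2 scale and 98% of 100 changed by 2 were recovered, with 6 unchanged genes called. The noise was independent between genes and equal in spread between groups, with no shift of 0.19 and no library standing apart. These rates may therefore not hold for the data: the fit of the males alone recovered 67% and 96% in the simulation but called 3 genes in the data. Named were Oxr1 and the sex check; among called genes the largest rises and falls, those of smallest p outside the lists and up to 3 per list; the largest gaps per library; the smallest p of the sex difference; the most abundant genes; and, added later, calls surviving each omission of a male library and each scaling. The comparison, lists and tests were chosen with earlier results of these data known. Replicate numbers were not taken as pairs in the main fit. No pair of libraries shared more than 0.34% of its values at 5 FPKM or more, so each was counted separately. Names and positions come from RefSeq by Entrez number (18498 matched), and promoters from RefSeq, GRCm38.p6. Alternatives covered the pseudocount, filters, scalings, library weights, the replicate number as a block, males alone and single libraries left out. Some genes that the naming rule would include are not reported here.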

Additional observations from a re-analysis of the deposited data

Results flagged for a closer look

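The effect of the knockout differed between the sexes, by the direct test of that difference in limma with adjustment over 11514 genes, for 3 genes. Cyp2b9 had the larger change in males by 5.80 on the log2 scale (adjusted p = 0.00122): it was at 107.5, 131.3 and 38.1 FPKM in knockout males, and at 401, 442 and 448 in wild-type and 385, 298 and 447 in knockout females. Slc22a27 differed by 2.43 (adjusted p = 0.0436), with 37.2, 38.2 and 46.7 FPKM in wild-type and 38.4, 29.4 and 38.9 in knockout females. Selenbp2, a selenium-binding protein, differed by -2.15 (adjusted p = 0.0436). It went from 215, 184 and 115 to 17.7, 17.0 and 17.5 FPKM in males and from 28.4, 33.7 and 22.6 to 13.9, 11.8 and 13.8 in females, so that the knockouts of both sexes lay close together.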

How the results depend on the processing

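The 294 calls in males (245 up, 49 down) became 378 (327 up) with a pseudocount of 0.1 and 266 (219 up) without the variance trend. Among the 6610 genes with a mean of at least 5 FPKM there were 319 (276 up), and with no filter 174 (137 up). Median-ratio scaling gave 152 (71 up, 81 down), array weights 63 (44 up, 19 down) and the 6 male libraries alone 3 (2 up, 1 down). Quantile normalization left 140 (61 up, 79 down), and removing the trend on transcript length made it 126 up and 174 down. With 1 library left out they ranged from 58 to 570, those up from 42 to 495 and those down from 16 to 75. With a replicate block 132 passed (103 up, 29 down). Deviations from the group mean correlated at 0.561, 0.114 and -0.27 between male libraries of the same number, and wild-type male 2 correlated best with knockout male 3 (0.409). Whether the numbers mark a pair or a batch was not tested. The sex difference, 3 genes, gave 5 with a pseudocount of 0.1, 10 with array weights, 5 with the replicate block, 25 without both wild-type male 2 and knockout male 3 (chosen after seeing the data), and 1 to 22 with 1 library left out. The cause of these shifts was not tested. Of 172 called genes followed under each of these settings, 0 changed sign. Among 49 lists, 22 changed the sign of their median under at least 1 scaling. Sequencing depth is unknown, so low FPKM values carry an error that cannot be stated.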
